A study of Mus musculus with 23 samples.

Results

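The voltage-gated potassium, sodium and calcium channels were examined across mouse models of medulloblastoma, the embryonal brain tumour of the cerebellum. Genes were taken by symbol: those starting with Kcna, Kcnb, Kcnc, Kcnd, Kcnh, Kcnq, Cacna, Cacnb or Cacng, and the sodium channel genes written as Scn, a number and a or b. Of 18194 genes with a probe set annotated to 1 gene, 61 met this rule, each read from the single-symbol probe set whose mean over the 23 arrays was highest. They comprised 8 sodium channel alpha and 3 beta subunits, 7 Kv1, 3 Kv3 and 3 Kv4 alpha subunits, 3 Kv beta subunits, 6 ether-a-go-go channels, 3 KCNQ channels, 9 calcium channel alpha1 subunits, 4 alpha2delta, 3 beta and 8 gamma subunits, and Kcnq1ot1, a non-coding transcript that shares the prefix. No Kcnb gene was among them.

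RNA levels were read with Affymetrix mouse expression arrays, and every value below is an RMA log2 signal, so that a difference of 1 is a doubling. The 3 CRISPR-Ptch1 tumours were induced by Cas9 and a guide RNA against an exon of Ptch1, the receptor that restrains Sonic hedgehog (SHH) signalling. The EP tumours (n = 2) came from in utero electroporation of wild-type CD1 embryos, a route that is not restricted to granule neuron precursors. The TF tumour (n = 1) came from polyethylenimine transfection of a newborn Trp53-/- mouse. Ptch1+/- tumours (n = 4) arose in mice heterozygous for Ptch1 in the germline, and MERP tumours (n = 5) in Atoh1-CreERT2;Ptch1 fl/fl mice, whose inducible recombinase acts in Atoh1-expressing precursors. GTML tumours (n = 4) were driven by an inducible MycN transgene and carry no engineered lesion in Ptch1. The references were granule neuron precursors (GNPs, n = 3) isolated between postnatal days 4 and 7, and whole adult cerebellum (n = 4). All samples are labelled CD1, but the study's methods name C57BL/6N as the strain used for transfection.

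Voltage-gated channels open when the membrane depolarises. Sodium channels start the action potential, Kv channels end it and set its frequency, and calcium channels turn it into calcium entry and transmitter release, while their beta, alpha2delta and gamma partners set trafficking and gating. In the cerebellum they give Purkinje cells, granule cells and interneurons their firing patterns, whereas GNPs are dividing cells that acquire this equipment as they leave the cycle.

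Arrays were comparable in scale, with medians of 5.999 to 6.17. Their lower quartiles were 4.40 to 4.61, and Cacng1, Cacng3, Cacng6, Scn9a and Scn10a lay no higher than that in every group, so that fold changes of these 5 genes are not interpretable. Their calls were not taken out of the counts below. Examples are Scn9a in GNPs against adult cerebellum and Cacng3 in CRISPR-Ptch1 tumours against GNPs. The median of all named genes was lower in Ptch1+/- tumours (7.04) and GTML tumours (7.15) than in MERP tumours (7.32), adult cerebellum (7.35), CRISPR-Ptch1 tumours (7.52) and GNPs (7.58). The mean of 6 markers of precursors and division was 11.42 to 12.04 in GNPs and the Ptch1 models, 9.52 to 9.71 in GTML tumours and 4.90 to 5.85 in adult cerebellum. In GTML tumours Atoh1 was 5.31 to 5.57 and Gli1 4.22 to 4.65, against at least 9.59 and 8.91 in GNPs and the Ptch1 models. There Mki67 was 11.99 to 12.47, Top2a 12.30 to 12.75, Birc5 10.40 to 11.16 and Ccnd2 11.95 to 12.73. In GNPs and the Ptch1 models Mki67 was 12.43 to 13.45, Top2a 12.18 to 12.74, Birc5 10.01 to 11.26 and Ccnd2 12.72 to 13.63. Top2a and Birc5 of GTML tumours thus overlapped with these ranges, while Mki67 and Ccnd2 lay mostly below them. Whether division differed was not tested. All 6 endothelial and pericyte markers were higher in GNPs than in adult cerebellum, with a mean of 10.18 to 10.83 against 8.23 to 8.40. In the tumours that mean was 6.52 to 8.65. The Ptch1 signal was 12.78 to 13.09 in CRISPR-Ptch1 tumours against 11.67 to 12.04 in GNPs. A frameshift need not lower a transcript, so this value does not check the edit. The mouse Mycn signal was 7.15 to 8.39 in GTML tumours and 11.67 to 12.57 in the other tumours and GNPs, and whether this probe set reads the transgene is not given in the sources used here.

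Adult cerebellum stood apart from all other tissue in these genes. In 22 of 61 genes (36.1%), every adult array lay above every tumour and GNP array, where 14.3% of all genes did so. They were Scn1a, Scn2a, Scn8a, Scn2b and Scn4b, Kcna1, Kcna2, Kcna6, Kcnab1, Kcnab2, Kcnab3, Kcnc1, Kcnc4, Kcnd2 and Kcnh1, and Cacna1a, Cacna1g, Cacna2d2, Cacna2d3, Cacnb2, Cacnb4 and Cacng7. In 6 genes (9.84%, against 12.9% of all genes) every adult array lay below every other array: Scn3a, Scn3b, Kcnq5, Kcnh5, Kcnh8 and Cacna2d1. In the remaining genes the adult arrays overlapped with others.

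**Figure D1:**
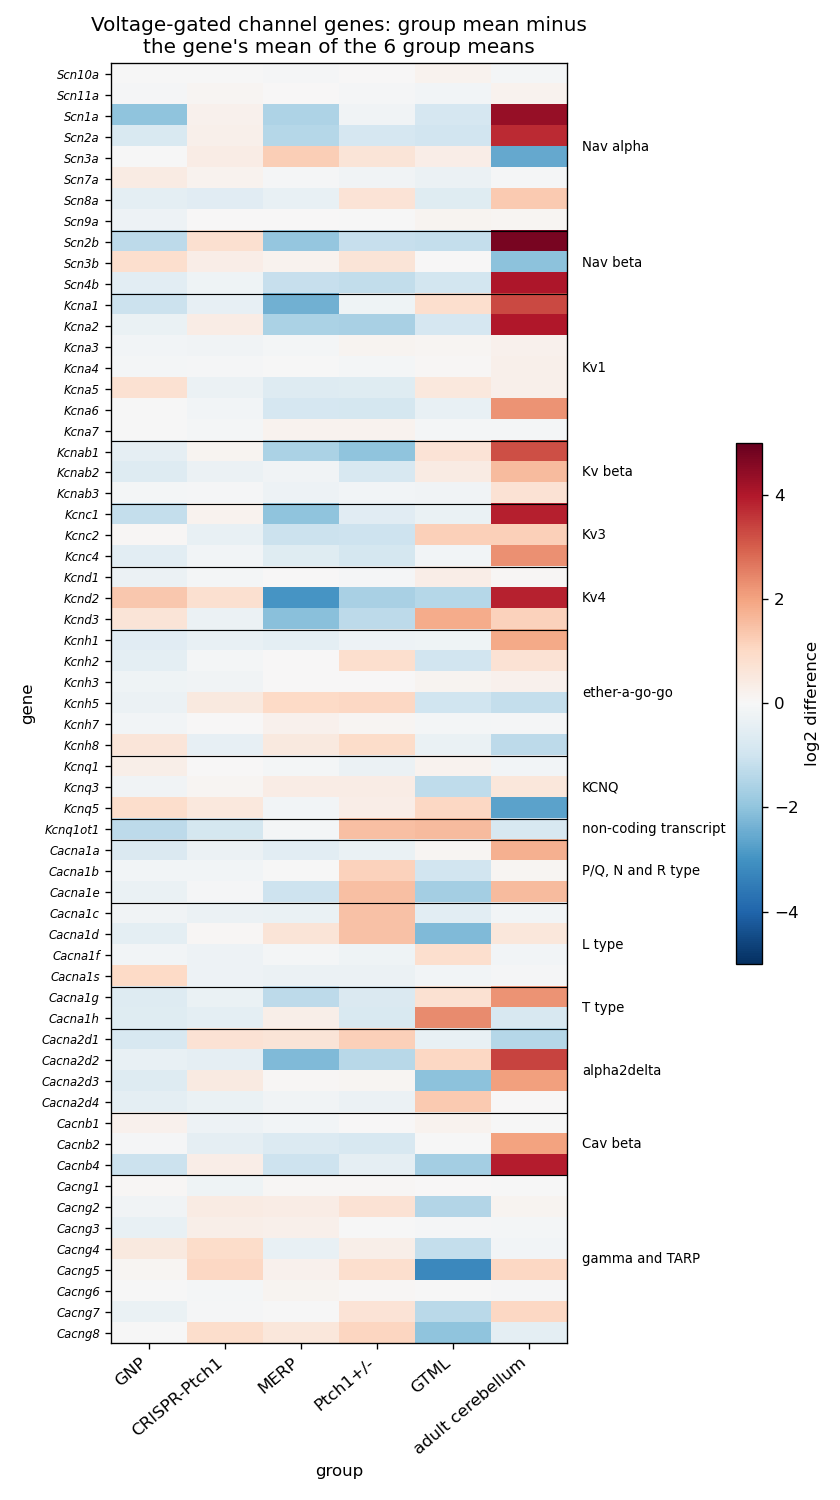
Heat map of the 61 channel genes (rows, ordered by role) over the 6 groups (columns), coloured by the group mean minus the mean of the 6 group means, in log2 units. Adult cerebellum was highest on every array in 22 of these genes and lowest on every array in 6.

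The moderated test of limma, with p-values adjusted over all 18194 genes, was applied to each comparison, and a gene was called at an adjusted p under 0.05. In GNPs 28 channel genes (45.9%) were lower and 6 (9.84%) higher than in adult cerebellum, against 21% and 29.1% of all genes. In CRISPR-Ptch1 tumours 27 were lower and 7 higher (all genes 21.1% and 26.4%), and in MERP tumours 27 and 9 (24.9% and 30.8%). In Ptch1+/- tumours 24 were lower and 13 higher (30.8% and 22.4%), and in GTML tumours 32 (52.5%) were lower and 10 higher (27.9% and 27.3%). The median difference of the 61 genes from adult cerebellum was -0.51 in GNPs, -0.39 in CRISPR-Ptch1, -0.21 in MERP, -0.18 in Ptch1+/- and -0.90 in GTML tumours, where the median of all genes lay between -0.03 and 0.08. These 5 comparisons share the same 4 adult arrays and are therefore not independent. In bulk tissue, fewer cells that express a channel and less RNA per cell cannot be told apart. Beside these counts, all 7 Purkinje, all 5 interneuron and all 7 oligodendrocyte markers were also lower than adult in each of the 5 comparisons, and 10 or 11 of 11 mature granule neuron markers. Their part in the channel differences was not tested.

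The promoter sequences of 6 of these genes are shown because the genes span both directions: Scn1a, Scn2b, Scn4b and Kcnc1 were high in adult cerebellum, Cacna2d1 and Kcnh5 low. Each is the 250 bases upstream of a RefSeq start on GRCm38.p6, 5′ to 3′ on the gene's strand, with CG dinucleotides in capitals. For Scn1a, Scn2b, Scn4b and Kcnh5 the window adjoins the outer end of the gene. For Cacna2d1 and Kcnc1 the start used is an internal one. Their gene spans begin at 15934264 and 46396219, so that these windows lie within the gene, for Kcnc1 apart from its first base. The build of the array annotation was not used for coordinates.
Scn1a chr2:66440838-66441087 (-): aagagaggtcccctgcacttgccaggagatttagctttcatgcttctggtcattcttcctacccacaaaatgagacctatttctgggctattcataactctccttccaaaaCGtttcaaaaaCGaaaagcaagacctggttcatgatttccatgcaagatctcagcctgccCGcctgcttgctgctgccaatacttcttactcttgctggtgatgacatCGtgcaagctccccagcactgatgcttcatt
Scn2b chr9:45117626-45117875 (+): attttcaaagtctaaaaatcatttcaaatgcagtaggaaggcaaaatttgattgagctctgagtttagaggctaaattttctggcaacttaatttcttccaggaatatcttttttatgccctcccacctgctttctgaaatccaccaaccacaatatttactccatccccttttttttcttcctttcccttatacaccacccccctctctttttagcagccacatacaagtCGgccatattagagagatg
Scn4b chr9:45138374-45138623 (+): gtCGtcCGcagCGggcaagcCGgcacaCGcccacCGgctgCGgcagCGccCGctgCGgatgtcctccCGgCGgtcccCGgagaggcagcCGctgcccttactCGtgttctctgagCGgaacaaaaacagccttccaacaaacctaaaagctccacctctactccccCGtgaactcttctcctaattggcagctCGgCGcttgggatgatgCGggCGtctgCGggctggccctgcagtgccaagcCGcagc
Kcnc1 chr7:46396218-46396467 (+): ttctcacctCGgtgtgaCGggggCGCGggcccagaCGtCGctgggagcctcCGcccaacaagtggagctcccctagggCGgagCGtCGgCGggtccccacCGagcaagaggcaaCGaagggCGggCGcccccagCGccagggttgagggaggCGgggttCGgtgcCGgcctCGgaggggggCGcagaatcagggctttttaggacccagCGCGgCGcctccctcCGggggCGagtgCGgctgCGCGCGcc
Cacna2d1 chr5:15934441-15934690 (+): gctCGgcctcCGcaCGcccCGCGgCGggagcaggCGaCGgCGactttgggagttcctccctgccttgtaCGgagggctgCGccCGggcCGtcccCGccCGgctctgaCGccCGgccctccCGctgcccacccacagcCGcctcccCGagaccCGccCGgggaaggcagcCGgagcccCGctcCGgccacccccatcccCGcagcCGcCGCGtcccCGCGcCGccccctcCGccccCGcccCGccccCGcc
Kcnh5 chr12:75177333-75177582 (-): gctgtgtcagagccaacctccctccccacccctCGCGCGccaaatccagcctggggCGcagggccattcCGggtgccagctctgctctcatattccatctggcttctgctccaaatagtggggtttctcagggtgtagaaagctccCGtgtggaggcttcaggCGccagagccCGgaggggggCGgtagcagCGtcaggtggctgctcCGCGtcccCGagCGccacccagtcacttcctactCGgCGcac

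The CpG content of these windows varied widely in both sets. Scn1a held 4 CG dinucleotides (46.8% G+C) and Scn2b only 1 (38.4%), while Scn4b, its neighbour on chromosome 9, held 23 (66%). Kcnc1 held 30 (74.4%), Kcnh5 16 (65.6%) and Cacna2d1 36 (82.4%). Of the members, 47 had a RefSeq window. In the richest window of each gene, the median was 17.5 CG dinucleotides for the 22 genes lower in GNPs than in adult cerebellum (range 1 to 50), 17 for the 4 that were higher (9 to 36), 8 for the 21 not called and 6 for 27025 genes of the promoter table. High and low genes were thus not separated by this feature. The left and right parts of the RE1 element bound by the REST repressor, CAGCACC and GGACAGC, were searched on both strands of the windows extended by 50 bases past the start. These motifs share the bases CAGC and can overlap, and no spacing between them was required. The left part was present in 4 of 65 member windows (6.15%: Kcnab2, Kcnc2, Kcnh2 and Kcnq5) and in 7.14% of all 32851 windows, and the right part in 3 (4.62%: Cacnb1, Cacng6 and Kcnq5) and in 6.56%. No member window held both, as did 0.575% of all windows. No window was given for Cacna1a, Cacna1g, Cacna1h, Cacna2d4, Cacng1, Cacng4, Kcna1, Kcnab3, Kcnd1, Kcnh3, Kcnq1, Kcnq3, Scn3a and Scn3b.

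Among the sodium channel alpha subunits, which form the pore, adult and embryonic forms differed in opposite directions between the tissues. Scn1a, the alpha subunit prominent in fast-spiking inhibitory neurons, had signals of 11.25, 11.10, 11.04 and 10.93 in adult cerebellum and 4.83, 4.90 and 4.45 in GNPs. It was 6.68 and 7.94 in the EP tumours and 6.18 in the TF tumour of the CRISPR-Ptch1 group, 5.56, 5.62, 5.82, 4.93 and 4.07 in MERP, 6.48, 6.68, 6.26 and 6.85 in Ptch1+/- and 6.26, 3.85, 5.69 and 7.71 in GTML tumours. Every tumour and GNP array was far below the lowest adult array. CRISPR-Ptch1 and Ptch1+/- tumours lay above all MERP tumours, and GTML tumours spanned both. The difference from adult ranged from -6.36 (SE 0.58, adjusted p = 6.71e-09) in GNPs to -4.15 (SE 0.58, adjusted p = 3.71e-06) in CRISPR-Ptch1 tumours, or 81.9-fold and 17.7-fold lower. Scn2a, the alpha subunit of initial segments of excitatory neurons, was 11.96 to 12.24 in adult cerebellum, 7.40 to 7.85 in GNPs and 5.50 to 9.92 over all tumours, with differences from -5.15 (SE 0.49, adjusted p = 9.44e-09) in MERP tumours to -3.46 (SE 0.56, adjusted p = 2.52e-05) in CRISPR-Ptch1 tumours.

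Scn8a, the main alpha subunit at nodes of Ranvier and a carrier of the resurgent current of Purkinje cells, was 11.14, 10.82, 11.02 and 10.95 in adult cerebellum and 9.78, 8.83 and 8.86 in GNPs. It was 9.17 and 9.57 in the EP tumours and 8.56 in the TF tumour of the CRISPR-Ptch1 group, 9.11, 9.50, 9.60, 8.90 and 9.38 in MERP, 10.39, 10.40, 10.01 and 10.65 in Ptch1+/- and 9.56, 8.18, 9.37 and 9.18 in GTML tumours. Ptch1+/- tumours lay closest to adult tissue, and all 4 exceeded every other tumour array. Scn8a was lower than adult in GTML (-1.91), CRISPR-Ptch1 (-1.88) and MERP tumours (-1.69) and in GNPs (-1.83), whereas Ptch1+/- tumours gave -0.62 (SE 0.27, adjusted p = 0.0579) and were not called. Scn3a, the alpha subunit of the embryonic brain, showed the reverse pattern, with 4.25, 4.40, 4.50 and 4.52 in adult cerebellum, near the lower quartile of the arrays, and 6.83 to 7.07 in GNPs. MERP tumours were at 8.05, 8.46, 8.60, 8.83 and 7.15, the highest group mean, and the differences from adult, lower limits because the adult level is near background, ranged from 3.80 (SE 0.34, adjusted p = 3.52e-09) in MERP tumours to 2.57 (SE 0.39, adjusted p = 8.83e-06) in GNPs. The TF tumour was at 6.30, the lowest Scn3a signal of all tumours, against 7.85 and 7.88 in the EP tumours. Scn3a and Scn2a are neighbours on chromosome 2 with a gap of 53173 bases. From GNPs to adult cerebellum Scn3a went from 6.99 to 4.42 and Scn2a from 7.61 to 12.09. Scn1a, Scn9a and Scn7a follow in the same cluster, and Scn7a, a sodium-level sensor, was at 4.81 in GNPs and 4.34 in adult cerebellum. The sensory neuron subunits Scn9a, Scn10a and Scn11a did not exceed 5.22 on any array.

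The beta subunits, cell adhesion proteins that modulate gating, split in the same way. Scn2b, which is joined to the alpha subunit by a disulfide bond, was 12.95, 12.91, 12.82 and 12.83 in adult cerebellum and 6.72, 6.93 and 6.76 in GNPs. The signals were 9.02 and 10.03 in the EP tumours and 7.76 in the TF tumour of the CRISPR-Ptch1 group, 6.42, 6.59, 6.90, 6.63 and 4.40 in MERP, 7.24, 6.82, 6.81 and 7.03 in Ptch1+/- and 7.76, 4.32, 7.17 and 8.44 in GTML tumours. GTML 2 and MERP 5 had the lowest signals, near the lower quartile of the arrays, and EP 2 the highest of the tumours. Differences from adult ranged from -6.69 (SE 0.61, adjusted p = 3.91e-09) in MERP tumours to -3.94 (SE 0.69, adjusted p = 5.87e-05) in CRISPR-Ptch1 tumours, the first of which is 103-fold. Scn4b, whose product blocks the open channel during resurgent current in Purkinje cells, was 9.94 to 10.31 in adult cerebellum, 5.39 to 5.86 in GNPs and 4.75 to 6.89 over the tumours, with differences from -5.29 (SE 0.28, adjusted p = 1.14e-12) in Ptch1+/- tumours to -4.27 (SE 0.31, adjusted p = 2.23e-10) in CRISPR-Ptch1 tumours. Scn2b and Scn4b lie next to each other on chromosome 9, 8554 bases apart. Scn3b, the beta subunit of the developing brain, was instead 5.85, 6.31, 5.91 and 6.49 in adult cerebellum and 9.19, 8.97 and 8.91 in GNPs. Its signals were 8.56 and 8.78 in the EP tumours and 8.23 in the TF tumour of the CRISPR-Ptch1 group, 8.36, 8.52, 8.40, 8.32 and 8.29 in MERP, 9.11, 9.02, 8.52 and 8.68 in Ptch1+/- and 8.23, 7.27, 8.50 and 8.86 in GTML tumours. Every GNP and tumour array exceeded every adult array, and the differences ranged from 2.88 (SE 0.26, adjusted p = 4.3e-09) in GNPs to 2.07 (SE 0.24, adjusted p = 1.35e-07) in GTML tumours.

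**Figure D2:**
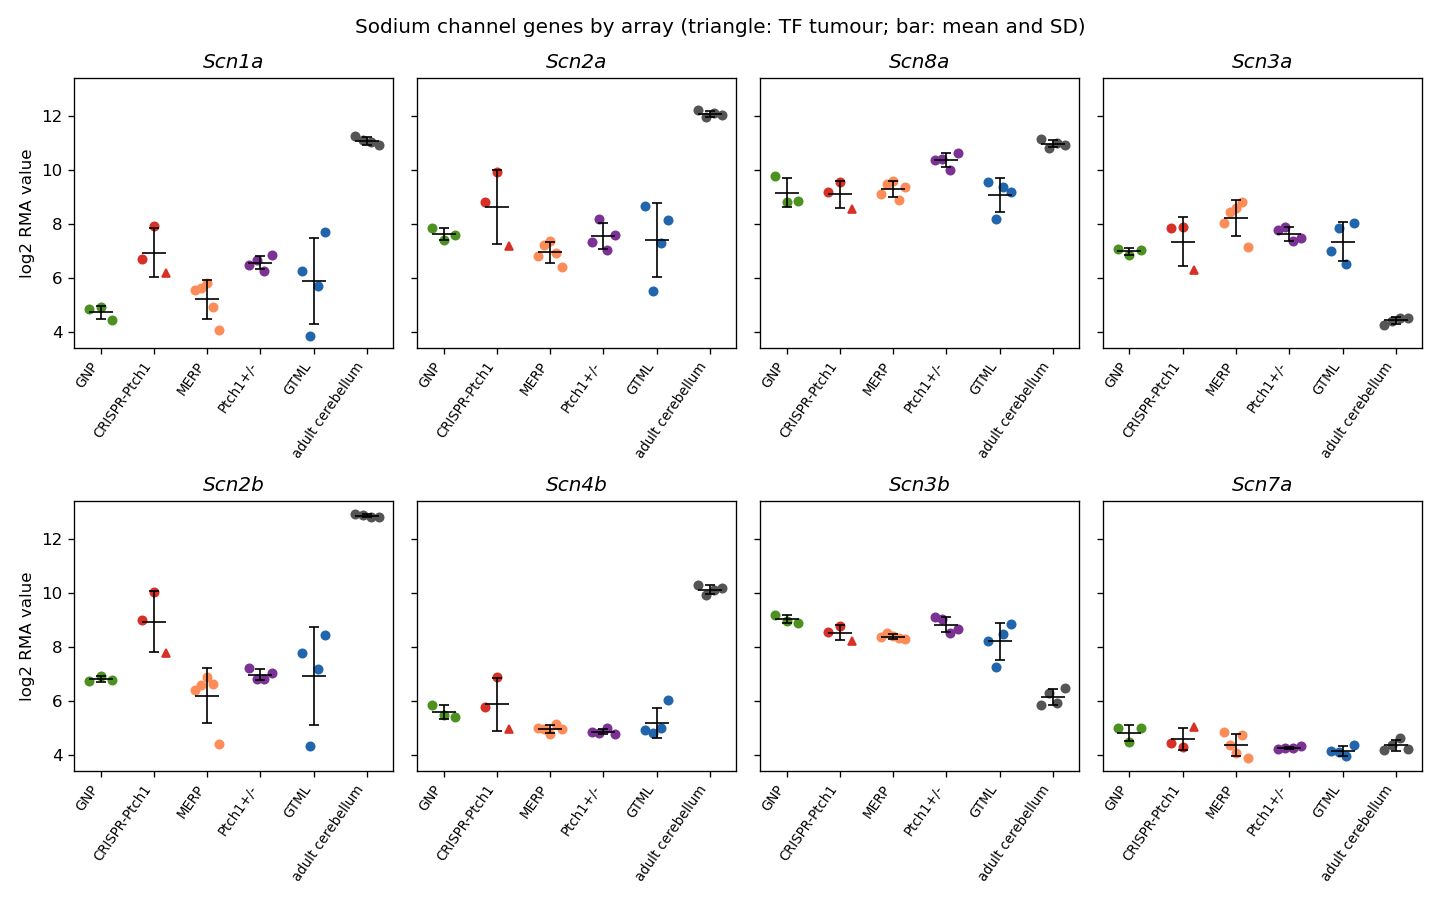
RMA log2 signals of 8 sodium channel genes by array (vertical axis) in the 6 groups (horizontal axis). Points are arrays, the triangle is the TF tumour, and bars show the mean and SD. Scn1a, Scn2a, Scn8a, Scn2b and Scn4b were highest in all 4 adult arrays, Scn3a and Scn3b lowest, and Scn7a stayed between 3.88 and 5.03.

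The Kv1 genes encode low-threshold delayed rectifiers of axons. Kcna1, a channel of juxtaparanodes and basket cell terminals, was 12.26, 12.01, 12.25 and 12.14 in adult cerebellum and 7.68, 7.68 and 7.99 in GNPs. It was 8.37 and 9.51 in the EP tumours and 7.46 in the TF tumour of the CRISPR-Ptch1 group, 7.52, 6.49, 6.30, 5.85 and 6.15 in MERP, 8.22, 9.04, 8.27 and 9.07 in Ptch1+/- and 10.11, 10.29, 8.59 and 9.79 in GTML tumours. MERP tumours had the lowest and GTML tumours the highest mean of the tumour groups, with no overlap between the MERP and Ptch1+/- arrays. The differences from adult ran from -5.70 (SE 0.37, adjusted p = 2.32e-11) in MERP tumours to -2.47 (SE 0.39, adjusted p = 1.37e-05) in GTML tumours. Kcna2, its frequent partner in the tetramer, was 11.32 to 11.71 in adult cerebellum, and the differences ran from -5.61 (SE 0.35, adjusted p = 1.38e-11) in Ptch1+/- tumours to -3.65 (SE 0.38, adjusted p = 6.6e-08) in CRISPR-Ptch1 tumours. Kcna6 was 8.17 to 8.43 in adult cerebellum and was lower, with differences of -2.27 in GNPs, -2.41 in CRISPR-Ptch1 tumours, -3.11 in MERP tumours, -3.14 in Ptch1+/- tumours and -2.61 in GTML tumours. Kcna3 and Kcna4 were not called in any comparison with adult cerebellum. Kcna5, known from heart and muscle, was 5.18, 5.57 and 4.89 in GNPs against 3.46 to 3.98 in MERP and 3.65 to 4.07 in Ptch1+/- tumours, where it was near background. It was also called lower in these 2 tumour groups (means 3.79 and 3.82) than in adult cerebellum (4.68). Kcna7, a muscle channel, stayed within 5.81 and 6.60 on all arrays. Its small difference was called, as higher in MERP and Ptch1+/- tumours (6.43 in each) than in adult cerebellum (6.14). Kcna1, Kcna6 and Kcna5 are neighbours on chromosome 6, and Kcna2 and Kcna3 on chromosome 3. In both clusters the adult-high genes sat beside genes that were not (Kcna5 and Kcna3).

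All 3 Kv beta genes, whose cytoplasmic products bind Kv1 channels, were lower than adult in each comparison, where 21% to 30.8% of all genes were. Kcnab1, which confers fast inactivation, was 11.67, 11.51, 11.51 and 11.61 in adult cerebellum and 7.64, 8.03 and 8.10 in GNPs. It was 8.31 and 9.46 in the EP tumours and 7.76 in the TF tumour of the CRISPR-Ptch1 group, 6.46, 6.66, 6.46, 6.45 and 7.90 in MERP, 6.30, 6.46, 6.52 and 6.06 in Ptch1+/- and 9.02, 7.38, 9.95 and 9.93 in GTML tumours. The Ptch1+/- arrays and MERP 1 to 4 were the lowest, and MERP 5 lay apart from the other MERP arrays. Differences from adult ranged from -5.24 (SE 0.44, adjusted p = 1.21e-09) in Ptch1+/- tumours to -2.50 (SE 0.44, adjusted p = 4.14e-05) in GTML tumours. For Kcnab2 they were -2.23 in GNPs, -1.88 in CRISPR-Ptch1 tumours, -1.76 in MERP tumours, -2.38 in Ptch1+/- tumours and -1.17 in GTML tumours, and for Kcnab3 between -0.97 in MERP tumours and -0.80 in CRISPR-Ptch1 tumours.

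Kv3 channels repolarise fast-spiking neurons. Kcnc1, a Kv3 alpha subunit abundant in granule cell axons, was 12.92, 12.91, 12.99 and 12.89 in adult cerebellum and 8.09, 7.77 and 7.62 in GNPs. It was 9.40 and 10.49 in the EP tumours and 7.71 in the TF tumour of the CRISPR-Ptch1 group, 6.68, 7.31, 7.97, 5.95 and 7.19 in MERP, 7.88, 8.62, 8.45 and 8.88 in Ptch1+/- and 8.67, 8.06, 9.31 and 8.71 in GTML tumours. EP 2 was the tumour nearest to adult tissue and MERP 4 the farthest. The differences from adult ran from -5.91 (SE 0.41, adjusted p = 6.3e-11) in MERP tumours to -3.73 (SE 0.47, adjusted p = 9.32e-07) in CRISPR-Ptch1 tumours. Kcnc4, an inactivating Kv3 channel, was lower, with differences of -2.80 in GNPs, -2.44 in CRISPR-Ptch1 tumours, -2.90 in MERP tumours, -3.17 in Ptch1+/- tumours and -2.43 in GTML tumours. Kcnc2, found in interneurons, was 6.22 to 6.86 in adult cerebellum and 6.61, 4.25, 6.79 and 8.54 in GTML tumours, which overlapped adult tissue, and its difference from adult in GNPs, -1.14 (SE 0.56, adjusted p = 0.0995), was not called, whereas it was lower in CRISPR-Ptch1 (-1.57), MERP (-2.26) and Ptch1+/- tumours (-2.25). The CRISPR-Ptch1 call of Kcnc2 was lost without EP 1 (-1.56, adjusted p = 0.0605), TF (-1.50, adjusted p = 0.0678) or 1 of 2 adult arrays, and in MERP and Ptch1+/- tumours, where it was near background, the differences are lower limits.

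Kv4 channels carry the A-type current of dendrites. Kcnd2, the Kv4 subunit of granule cells, was 12.94, 12.81, 12.83 and 12.86 in adult cerebellum and 10.30, 10.42 and 10.35 in GNPs. It was 9.58 and 11.02 in the EP tumours and 8.82 in the TF tumour of the CRISPR-Ptch1 group, 7.18, 6.79, 6.48, 4.87 and 4.998 in MERP, 6.99, 8.10, 6.66 and 7.83 in Ptch1+/- and 7.04, 6.75, 7.68 and 8.86 in GTML tumours. GNPs were intermediate, EP 2 was above and the other CRISPR-Ptch1 tumours were below them, and every array of the other models apart from GTML 4 was below every CRISPR-Ptch1 array. The differences from adult ranged from -6.79 (SE 0.49, adjusted p = 1.22e-10) in MERP tumours to -2.50 (SE 0.56, adjusted p = 0.000729) in GNPs, and that of MERP tumours, 111-fold, was the largest of any channel gene in the 5 comparisons. Kcnd3, the Kv4 subunit of Purkinje cells and interneurons, was 10.98, 11.01, 11.11 and 11.09 in adult cerebellum and 10.47, 10.57 and 10.57 in GNPs. Its signals were 9.43 and 9.57 in the EP tumours and 9.75 in the TF tumour of the CRISPR-Ptch1 group, 8.32, 8.03, 7.49, 6.72 and 8.38 in MERP, 8.59, 9.01, 7.95 and 8.71 in Ptch1+/- and 10.90, 11.87, 12.25 and 11.97 in GTML tumours. The order of the groups differed from that of Kcnd2, with GTML tumours around or above adult tissue and MERP and Ptch1+/- tumours lowest. Kcnd3 was lower than adult in MERP (-3.26, SE 0.29, adjusted p = 2.53e-09), Ptch1+/- (-2.48, SE 0.30, adjusted p = 3.69e-07) and CRISPR-Ptch1 tumours (-1.46, SE 0.33, adjusted p = 0.000759), and was not called in GNPs (-0.51) or GTML tumours (0.70). Kcnd1 was not called against adult cerebellum in any group.

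The ether-a-go-go genes went several ways. Kcnh2, the Erg channel best known from cardiac repolarisation, was 9.08, 9.03, 8.87 and 9.17 in adult cerebellum and 7.73, 7.77 and 7.93 in GNPs. It was 7.85 and 7.71 in the EP tumours and 9.08 in the TF tumour of the CRISPR-Ptch1 group, 8.29, 8.05, 8.59, 8.93 and 7.74 in MERP, 9.35, 9.35, 8.79 and 9.13 in Ptch1+/- and 7.13, 7.17, 7.74 and 7.46 in GTML tumours. Ptch1+/- tumours overlapped adult tissue, as did the TF tumour, while the EP tumours lay at the GNP level. The differences from adult ranged from -1.66 (SE 0.25, adjusted p = 8.17e-06) in GTML tumours to 0.12 (SE 0.25, adjusted p = 0.742) in Ptch1+/- tumours, the last not called, and the call in CRISPR-Ptch1 tumours (-0.82) was lost without EP 1 (-0.64, adjusted p = 0.106) or EP 2 (-0.57, adjusted p = 0.129). Kcnh1, the brain Eag channel, was 8.29, 8.23, 8.51 and 8.43 in adult cerebellum and 5.84, 5.97 and 5.99 in GNPs. Its signals were 6.08 and 6.53 in the EP tumours and 5.70 in the TF tumour of the CRISPR-Ptch1 group, 6.07, 5.74, 6.18, 6.17 and 5.81 in MERP, 5.77, 6.53, 6.35 and 6.34 in Ptch1+/- and 6.76, 6.33, 5.84 and 6.16 in GTML tumours. All lay below the lowest adult array without overlap, with differences from -2.43 (SE 0.21, adjusted p = 2.15e-09) in GNPs to -2.10 (SE 0.19, adjusted p = 4.52e-09) in GTML tumours.

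Kcnh5, an Eag channel that has been studied in medulloblastoma for its part in mitotic entry, lay near background in adult cerebellum at 3.05, 3.19, 3.04 and 2.99. It was 4.20, 4.05 and 3.76 in GNPs and 4.73 and 5.14 in the EP tumours and 4.38 in the TF tumour of the CRISPR-Ptch1 group, 4.77, 5.04, 5.63, 4.66 and 6.18 in MERP, 6.49, 6.17, 4.05 and 4.47 in Ptch1+/- and 3.43, 3.33, 3.20 and 3.23 in GTML tumours. The signal was highest in some MERP and Ptch1+/- tumours, varied by more than 2 within the Ptch1+/- group and was close to adult in GTML tumours. Kcnh5 was higher than adult in CRISPR-Ptch1 (1.68, SE 0.43, adjusted p = 0.00275), MERP (2.19, SE 0.38, adjusted p = 4.04e-05) and Ptch1+/- tumours (2.23, SE 0.40, adjusted p = 6.36e-05), but not called in GNPs (0.94) or GTML tumours (0.23). Because the adult level is near background, the differences in CRISPR-Ptch1, MERP and Ptch1+/- tumours are lower limits. GNPs and GTML tumours were near background too, so that their differences from adult are not interpretable. Kcnh8, an Elk channel, was 4.46 to 4.90 in adult cerebellum and higher in GNPs (1.94, SE 0.44, adjusted p = 0.000725), MERP (1.82), Ptch1+/- (2.25) and GTML tumours (0.99), the last lost without any 1 of the adult arrays, and not called in CRISPR-Ptch1 tumours (0.91). Kcnh3 was lower than adult in GNPs (-0.42) and CRISPR-Ptch1 tumours (-0.39), the first call lost without GNP 1 (-0.35, adjusted p = 0.0789) and the second without EP 1, TF or 1 of 2 adult arrays and with the replicate block (-0.36, adjusted p = 0.076). Kcnh7, an Erg channel, was not called against adult in any group.

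KCNQ channels carry the M-current that damps repetitive firing. Kcnq5 was 3.54, 4.43, 3.97 and 4.32 in adult cerebellum and 7.56, 7.53 and 7.84 in GNPs. It was 7.51 and 8.17 in the EP tumours and 6.22 in the TF tumour of the CRISPR-Ptch1 group, 7.36, 6.33, 6.54, 6.08 and 6.83 in MERP, 6.49, 7.67, 6.59 and 7.62 in Ptch1+/- and 7.90, 8.10, 7.20 and 8.04 in GTML tumours. All adult arrays lay near background and all others at 6.08 or above, with differences that ranged from 3.74 (SE 0.36, adjusted p = 1.15e-08) in GTML tumours to 2.56 (SE 0.34, adjusted p = 1.29e-06) in MERP tumours and are lower limits. The other Kcnq5 probe sets did not show this gap. In 1, the group means were 5.28 in adult cerebellum, 4.91 in GNPs, 5.49 in GTML, 5.64 in CRISPR-Ptch1, 5.94 in MERP and 7.64 in Ptch1+/- tumours. Another was lowest in adult cerebellum (3.53) but at most 4.64 in any group. Kcnq3, which forms the M-channel with KCNQ partners, was 9.26, 9.03, 9.03 and 8.97 in adult cerebellum and 8.54, 8.35 and 8.13 in GNPs. Its signals were 8.35 and 8.83 in the EP tumours and 8.61 in the TF tumour of the CRISPR-Ptch1 group, 9.19, 9.004, 8.76, 9.06 and 8.32 in MERP, 8.88, 9.11, 8.72 and 8.87 in Ptch1+/- and 7.57, 6.79, 7.06 and 7.59 in GTML tumours. Each GTML array was below each other array, and Kcnq3 was lower than adult in GTML tumours (-1.82, SE 0.18, adjusted p = 2.42e-08) and GNPs (-0.73, SE 0.20, adjusted p = 0.00395). The GNP call was lost with the mean of the probe sets (-0.17, adjusted p = 0.486). Kcnq1, the cardiac and epithelial channel, was not called against adult in any group. Kcnq1ot1, the non-coding transcript that starts within Kcnq1 on chromosome 7, was 8.27, 7.74, 7.87 and 7.24 in adult cerebellum and 8.37, 6.59 and 6.76 in GNPs. It was 7.73 and 7.51 in the EP tumours and 7.86 in the TF tumour of the CRISPR-Ptch1 group, 8.36, 8.47, 9.08, 8.05 and 8.31 in MERP, 9.68, 9.97, 10.18 and 10.46 in Ptch1+/- and 10.18, 10.06, 10.58 and 9.74 in GTML tumours. All GTML and Ptch1+/- arrays were above all other arrays. The transcript was higher than adult in GTML (2.36, SE 0.31, adjusted p = 1.02e-06) and Ptch1+/- tumours (2.29, SE 0.31, adjusted p = 1.58e-06), the same groups whose median over all genes was lowest, and it was not called in the other 3 groups.

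**Figure D3:**
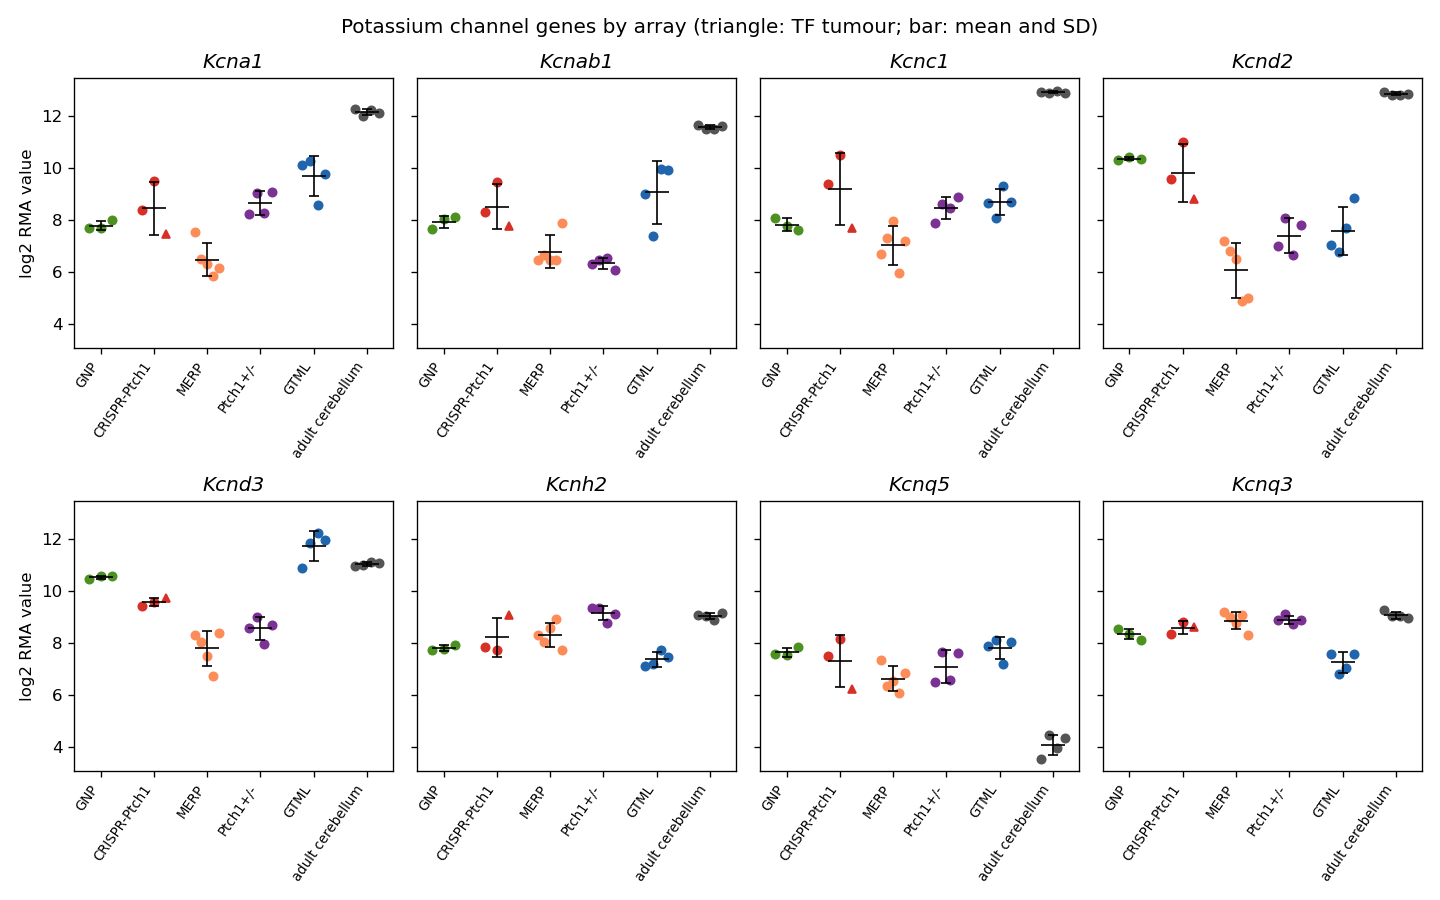
RMA log2 signals of 8 potassium channel genes by array (vertical axis) in the 6 groups (horizontal axis). Points are arrays, the triangle is the TF tumour, and bars show the mean and SD. Kcna1, Kcnab1, Kcnc1 and Kcnd2 were highest in all adult arrays, Kcnq5 was lowest there in the probe set shown, and Kcnd3 was high in GTML tumours (10.90 to 12.25).

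Among the neuronal high-voltage calcium channels, Cacna1a, the P/Q-type alpha1 subunit of Purkinje cells and granule cell terminals, was 9.60 to 9.85 in adult cerebellum and lower, with differences of -2.50 in GNPs, -2.10 in CRISPR-Ptch1 tumours, -2.34 in MERP tumours, -2.13 in Ptch1+/- tumours and -1.70 in GTML tumours. Cacna1b, the N-type alpha1 subunit, was 9.16, 9.15, 9.23 and 9.03 in adult cerebellum and 9.38, 8.59 and 8.77 in GNPs. It was 9.09 and 9.19 in the EP tumours and 8.52 in the TF tumour of the CRISPR-Ptch1 group, 8.95, 8.996, 9.52, 8.65 and 9.17 in MERP, 10.004, 10.43, 9.99 and 10.36 in Ptch1+/- and 8.84, 8.05, 7.39 and 8.20 in GTML tumours. All Ptch1+/- arrays exceeded all other arrays (1.05, SE 0.24, adjusted p = 0.00079 against adult), and GTML tumours were lower than adult (-1.02, SE 0.24, adjusted p = 0.00101). Cacna1e, the R-type alpha1 subunit, was 10.85, 10.60, 10.70 and 10.36 in adult cerebellum and 9.22, 8.50 and 8.42 in GNPs. Its signals were 9.35 and 10.08 in the EP tumours and 7.52 in the TF tumour of the CRISPR-Ptch1 group, 8.42, 8.38, 7.91, 7.57 and 7.78 in MERP, 10.65, 10.56, 9.96 and 10.91 in Ptch1+/- and 7.98, 6.57, 7.21 and 7.51 in GTML tumours. Ptch1+/- tumours overlapped adult tissue, and the TF tumour was below both EP tumours. Cacna1e was lower than adult in GTML (-3.31, SE 0.39, adjusted p = 2.18e-07), MERP (-2.61, SE 0.37, adjusted p = 2.7e-06) and CRISPR-Ptch1 tumours (-1.64, SE 0.42, adjusted p = 0.00259) and in GNPs (-1.91, SE 0.42, adjusted p = 0.000592), and was not called in Ptch1+/- tumours (-0.11).

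L-type channels couple depolarisation to contraction, secretion and gene expression. Cacna1d was 8.74, 8.39, 8.65 and 8.57 in adult cerebellum and 7.96, 7.40 and 7.27 in GNPs. It was 8.37 and 8.50 in the EP tumours and 7.39 in the TF tumour of the CRISPR-Ptch1 group, 8.23, 8.71, 9.34, 8.50 and 8.53 in MERP, 9.07, 9.72, 9.41 and 9.77 in Ptch1+/- and 6.52, 5.34, 5.57 and 5.82 in GTML tumours. GTML arrays were below all others, and 3 of the 4 Ptch1+/- arrays were above all others. The test gave -2.78 (SE 0.27, adjusted p = 1.22e-08) in GTML tumours, -1.05 (SE 0.29, adjusted p = 0.00447) in GNPs and 0.90 (SE 0.27, adjusted p = 0.00687) in Ptch1+/- tumours against adult. Cacna1c, the other widely expressed L-type subunit, was 8.77 to 9.43 in Ptch1+/- tumours and did not exceed 7.95 elsewhere (1.61, SE 0.26, adjusted p = 1.58e-05 against adult). With the probe set of the highest SD that difference was 0.25, adjusted p = 0.547, and not called. In that probe set the group means were 7.68 in Ptch1+/- tumours and 7.43 in adult cerebellum. They were 6.54 in GTML, 6.06 in CRISPR-Ptch1 and 5.53 in MERP tumours and 5.75 in GNPs. The probe sets of Cacna1c thus disagreed on the adult level. Cacna1s, the skeletal muscle subunit, was 5.51, 5.28 and 5.08 in GNPs and 3.79 to 4.37, near background, on all other arrays (1.08, SE 0.13, adjusted p = 2.53e-07 in GNPs against adult).

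T-type channels open near the resting potential. Cacna1g, a T-type subunit of Purkinje cells, was 9.50, 9.37, 9.64 and 9.56 in adult cerebellum and 6.71, 6.79 and 6.34 in GNPs. It was 6.71 and 7.83 in the EP tumours and 6.21 in the TF tumour of the CRISPR-Ptch1 group, 6.28, 5.68, 5.68, 6.03 and 6.09 in MERP, 5.54, 6.997, 6.19 and 7.46 in Ptch1+/- and 7.91, 7.33, 8.39 and 8.55 in GTML tumours. Adult arrays were above all others, and MERP tumours had the lowest mean, with differences from -3.56 (SE 0.33, adjusted p = 5.96e-09) in MERP tumours to -1.47 (SE 0.35, adjusted p = 0.00108) in GTML tumours. Cacna1h, the other T-type subunit measured, was 8.19, 8.37, 8.23 and 8.84 in GTML tumours, above all other arrays, 6.11 to 6.50 in MERP tumours and 5.04 to 5.87 in the rest. It was higher than adult in GTML (3.17, SE 0.16, adjusted p = 4.72e-13, 8.99-fold) and MERP tumours (1.11, SE 0.15, adjusted p = 2.09e-06).

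A further 2 calcium channel genes were highest in all GTML arrays: Cacna1f, the L-type subunit of photoreceptors (7.24, 7.18, 8.19 and 6.97, against at most 6.76 elsewhere), and Cacna2d4, the alpha2delta subunit of photoreceptors (6.73, 5.08, 7.25 and 4.99, against at most 4.98). Against adult cerebellum the differences were 0.98 (SE 0.18, adjusted p = 9.32e-05) and 1.28 (SE 0.33, adjusted p = 0.00208). With Cacna1h, 3 of 61 genes (4.92%) had all GTML arrays above all others, where 3.63% of all genes did, and 6 (9.84%, against 4.34%) had them below all others: Cacna1d, Cacng2, Cacng5, Cacng7, Cacng8 and Kcnq3. The photoreceptor transcription factor Crx was 8.80, 9.29, 9.95 and 9.14 in the GTML tumours and at most 5.21 elsewhere. Pde6b, a rod phosphodiesterase subunit, was 7.58, 6.15, 7.47 and 5.30 in GTML tumours and at most 5.25 elsewhere. Gnat1 and Rcvrn, the other photoreceptor markers measured, stayed at 3.42 to 5.06 on all arrays. The mean of the 4 markers was 5.56 to 6.60 in GTML tumours and 4.17 to 4.63 elsewhere, and its part in the channel signals was not tested.

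The alpha2delta subunits bring the channel to the membrane. Cacna2d1, the gabapentin-binding subunit, was 9.97, 9.90, 9.95 and 9.93 in adult cerebellum and 10.78, 10.30 and 10.63 in GNPs. It was 12.20 and 12.14 in the EP tumours and 11.86 in the TF tumour of the CRISPR-Ptch1 group, 11.77, 12.11, 12.42, 11.64 and 12.07 in MERP, 12.61, 12.65, 12.25 and 12.73 in Ptch1+/- and 11.34, 10.69, 11.27 and 10.57 in GTML tumours. In this probe set all CRISPR-Ptch1, MERP and Ptch1+/- tumours exceeded all GTML, GNP and adult arrays. The differences from adult ran from 2.62 (SE 0.18, adjusted p = 5.04e-11) in Ptch1+/- tumours to 0.63 (SE 0.19, adjusted p = 0.00898) in GNPs, and the call in GNPs was lost without GNP 1 (0.53, adjusted p = 0.055). With the probe set of the highest SD instead, the GNP difference turned to -0.56, adjusted p = 0.413, that of CRISPR-Ptch1 tumours from adult was 0.99, adjusted p = 0.134 and no longer called, and CRISPR-Ptch1 tumours were below GTML tumours (-2.28, adjusted p = 0.00154). The probe sets of Cacna2d1 thus disagreed. Cacna2d2, the subunit of Purkinje cells that is lost in the ducky mouse, was 11.90, 11.69, 11.90 and 11.73 in adult cerebellum and 8.31, 8.10 and 7.72 in GNPs. Its signals were 7.86 and 8.70 in the EP tumours and 7.41 in the TF tumour of the CRISPR-Ptch1 group, 6.13, 6.56, 6.21, 6.34 and 5.85 in MERP, 6.21, 7.80, 6.91 and 7.18 in Ptch1+/- and 9.07, 8.22, 9.86 and 10.67 in GTML tumours. Adult arrays were above all others and MERP tumours had the lowest mean, with differences from -5.59 (SE 0.37, adjusted p = 2.23e-11) in MERP tumours to -2.35 (SE 0.39, adjusted p = 1.96e-05) in GTML tumours. Cacna2d3 was lower, with differences of -2.72 in GNPs, -1.61 in CRISPR-Ptch1 tumours, -1.99 in MERP tumours, -1.98 in Ptch1+/- tumours and -4.11 in GTML tumours, and the CRISPR-Ptch1 difference was -0.74, adjusted p = 0.238 without the TF tumour.

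The Cav beta subunits bind the channel in the cytoplasm. Cacnb4, which is mutated in the lethargic mouse, was 12.70, 12.52, 12.49 and 12.51 in adult cerebellum and 7.52, 7.49 and 7.57 in GNPs. It was 9.10 and 10.08 in the EP tumours and 7.61 in the TF tumour of the CRISPR-Ptch1 group, 7.88, 7.82, 7.98, 7.02 and 7.24 in MERP, 7.59, 8.63, 7.80 and 8.65 in Ptch1+/- and 8.05, 4.74, 6.62 and 8.20 in GTML tumours. EP 2 was the highest tumour and GTML 2 the lowest. GTML 2 was also the lowest GTML array in Scn1a, Scn2a and Scn2b, and its marker means stood apart: astrocytes were at 6.78 against 9.22 to 9.56 in the other GTML tumours, oligodendrocytes at 5.19 against 6.85 to 8.56 and interneurons at 4.59 against 6.29 to 7.28, whose part in these levels was not tested. The differences from adult ranged from -5.65 (SE 0.55, adjusted p = 1.44e-08) in GTML tumours to -3.62 (SE 0.60, adjusted p = 3.01e-05) in CRISPR-Ptch1 tumours. Cacnb2 was lower, with differences of -2.06 in GNPs, -2.47 in CRISPR-Ptch1 tumours, -2.71 in MERP tumours, -2.81 in Ptch1+/- tumours and -2.04 in GTML tumours, whereas Cacnb1, the muscle subunit, was not called against adult in any group.

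Of the 8 gamma genes, Cacng2, Cacng3, Cacng4, Cacng5, Cacng7 and Cacng8 encode TARPs, which escort AMPA receptors. Cacng2, stargazin, was 10.67, 10.37, 10.56 and 10.52 in adult cerebellum and 10.07, 10.22 and 10.30 in GNPs. It was 10.84 and 10.82 in the EP tumours and 10.75 in the TF tumour of the CRISPR-Ptch1 group, 10.26, 11.06, 11.17, 10.64 and 10.71 in MERP, 11.15, 10.99, 11.12 and 11.14 in Ptch1+/- and 9.51, 8.52, 8.62 and 9.02 in GTML tumours. Ptch1+/- tumours were above all adult arrays (0.57, SE 0.18, adjusted p = 0.011), and GTML tumours were below all other arrays (-1.61, SE 0.18, adjusted p = 1.28e-07 against adult). The Ptch1+/- call was lost with the mean of the probe sets (0.21, adjusted p = 0.189) and with that of the highest SD (0.14, adjusted p = 0.437). Cacng5 was 9.79, 9.73, 9.73 and 9.80 in adult cerebellum and 8.86, 9.13 and 8.54 in GNPs. Its signals were 9.53 and 9.08 in the EP tumours and 10.69 in the TF tumour of the CRISPR-Ptch1 group, 9.53, 9.06, 9.17, 7.61 and 9.32 in MERP, 9.66, 10.35, 9.06 and 9.17 in Ptch1+/- and 5.51, 4.94, 5.56 and 6.03 in GTML tumours. No group but GTML was called against adult, and in GTML tumours Cacng5 was 19.1-fold lower (-4.25, SE 0.37, adjusted p = 2.44e-09). Cacng8 was 4.26, 4.13, 4.19 and 5.22 in GTML tumours, near background in 3 of 4, and above adult cerebellum (5.80 to 6.12) in CRISPR-Ptch1 (1.37, SE 0.28, adjusted p = 0.000352), MERP (1.05, SE 0.25, adjusted p = 0.00101) and Ptch1+/- tumours (1.56, SE 0.26, adjusted p = 2.55e-05). Cacng7 was 8.87 to 9.06 in adult cerebellum and lower, with differences of -1.37 in GNPs, -1.10 in CRISPR-Ptch1 tumours, -1.05 in MERP tumours, -0.35 in Ptch1+/- tumours and -2.38 in GTML tumours. The Ptch1+/- call of Cacng7 was lost with arrays centred on the named genes (-0.042, adjusted p = 0.803), with quantile normalization again, and without Ptch1+/- 2 (-0.26, adjusted p = 0.0859) or adult cerebellum 4. In GTML tumours 5 of the 8 gamma genes were lower than adult, where 27.9% of all genes were, against 1 of 8 in each of the other groups (21% to 30.8%). Of the 5, Cacng4 lost its call without GTML 2 (-0.85, adjusted p = 0.0505) or GTML 3 (-0.64, adjusted p = 0.0692). Cacng4 was 9.28 to 10.22 in CRISPR-Ptch1 tumours and 8.66 to 8.88 in adult cerebellum (1.05, SE 0.36, adjusted p = 0.0207), a call lost without EP 1 (0.85, adjusted p = 0.108) or EP 2 (0.98, adjusted p = 0.064).

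**Figure D4:**
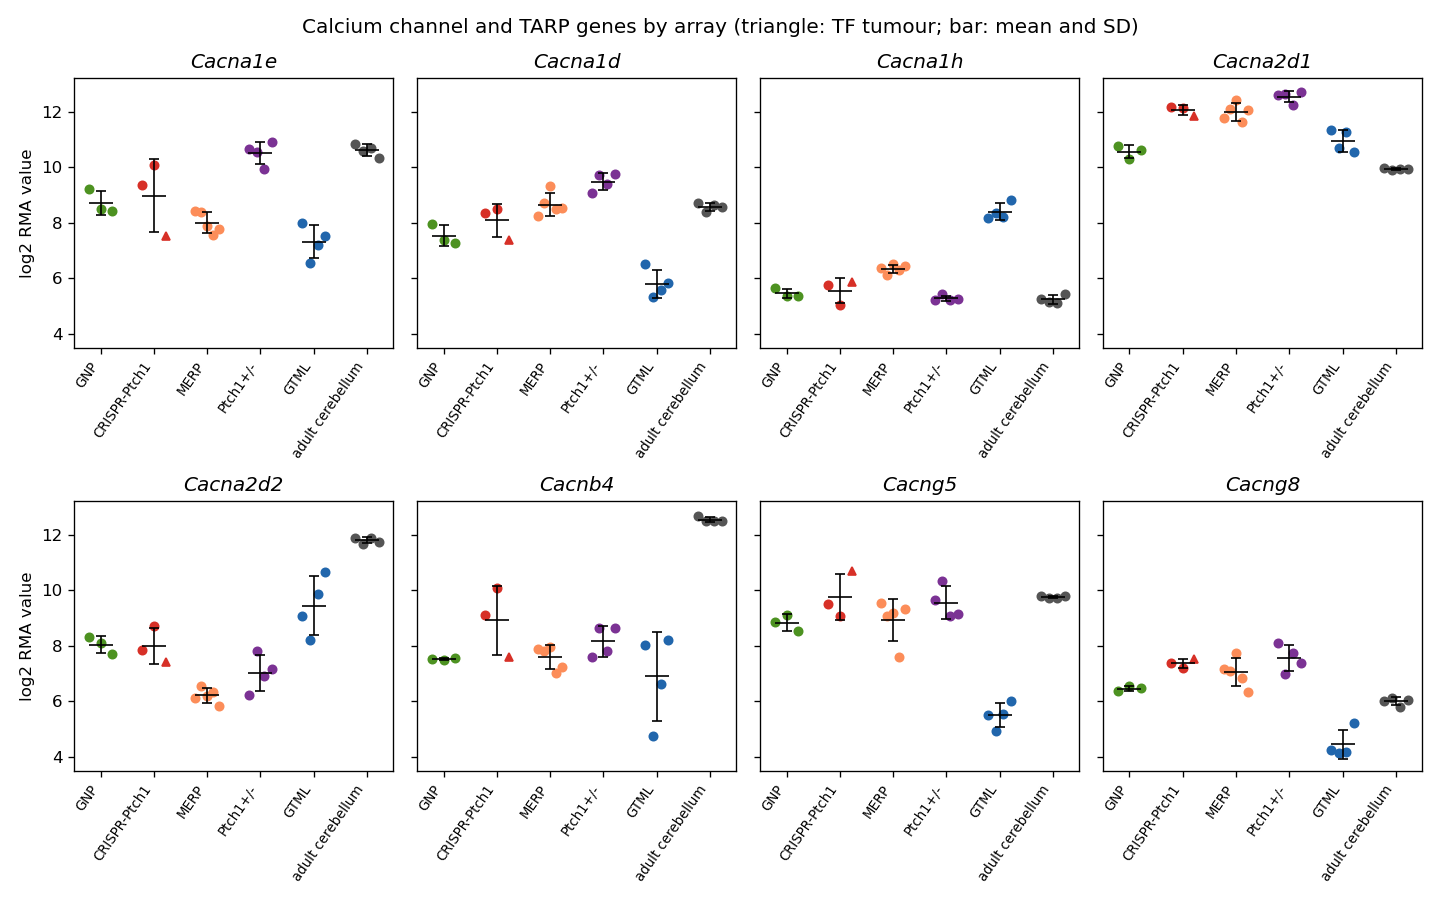
RMA log2 signals of 8 calcium channel genes by array (vertical axis) in the 6 groups (horizontal axis). Points are arrays, the triangle is the TF tumour, and bars show the mean and SD. Cacna1h was highest in GTML tumours, Cacna1d, Cacng5 and Cacng8 were lowest there, and Cacna2d1, whose probe sets disagreed, was highest in the tumours with a lesion in Ptch1 in the probe set shown.

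Compared with GNPs, the precursors from which SHH medulloblastoma arises, fewer channel genes were called. In CRISPR-Ptch1 tumours 4 were higher and 2 lower (all genes 5.79% and 7.95%), in MERP tumours 8 and 7 (7.12% and 12.1%), in Ptch1+/- tumours 14 and 10 (9.4% and 29.9%) and in GTML tumours 12 and 14 (16.1% and 25.7%). Centring the arrays on the median of the named genes gave 19 higher and 7 lower in MERP, 34 and 5 in Ptch1+/- and 28 and 10 in GTML tumours. Centring on all probe sets gave 2 and 2 in CRISPR-Ptch1 tumours, and quantile normalization again gave 2 and 3. The counts depended on the fit: with array weights 38 channel genes were called in CRISPR-Ptch1 and 33 in MERP tumours, and with only the compared groups in the fit 11 were called in CRISPR-Ptch1 tumours. Markers of other cells differed as well. Of 6 endothelial and pericyte markers, 5 were lower than in GNPs in CRISPR-Ptch1 tumours and all 6 in each other model, and in CRISPR-Ptch1 tumours 5 of 7 Purkinje, 4 of 11 granule neuron and 5 of 8 microglia markers were higher. In MERP and in Ptch1+/- tumours 3 of 7 Purkinje, 3 of 11 granule neuron and 3 of 5 interneuron markers were lower, and in GTML tumours 5 of 11 granule neuron, 4 of 8 astrocyte and 3 of 4 oligodendrocyte precursor markers. Their part in the channel differences was not tested. The 4 comparisons share the 3 GNP arrays. Higher in CRISPR-Ptch1 tumours were Scn1a (2.21, SE 0.62, adjusted p = 0.0189), Cacna2d1 (1.50, SE 0.21, adjusted p = 2.37e-05), Cacng8 (0.91, SE 0.30, adjusted p = 0.0487) and Cacng3, the last near background. The Scn1a call was lost without EP 2 (1.70, adjusted p = 0.114) or GNP 3, and those of Cacng8 and Cacng3 without any 1 of the 6 arrays. Lower were Cacna1s (-1.27, SE 0.13, adjusted p = 7.64e-07) and Kcna5 (-1.06, SE 0.25, adjusted p = 0.0065), both near background in the tumours, so that these are lower limits.

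In MERP tumours the Kv4 genes Kcnd2 (-4.29, SE 0.54, adjusted p = 3.33e-06) and Kcnd3 (-2.75, SE 0.31, adjusted p = 8.48e-07) fell furthest from the GNP level. Cacna2d2 (-1.82, SE 0.40, adjusted p = 0.00201) and Kcna5 (-1.42, SE 0.23, adjusted p = 7.8e-05, a lower limit) were also lower, and Kcna1 (-1.32, SE 0.41, adjusted p = 0.0257) was called but lost the call without any 1 of the GNP arrays. Higher were Cacna2d1 (1.43, SE 0.18, adjusted p = 4.8e-06) and Cacna1d (1.12, SE 0.28, adjusted p = 0.00583). Kcnh5 (1.25, a lower limit because GNPs are near background) and Scn3a (1.23) lost their calls without any 1 of the GNP arrays. Kcnq1ot1 (1.22) lost its call without GNP 2 or GNP 3.

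In Ptch1+/- tumours Kcnd2 (-2.96, SE 0.56, adjusted p = 0.000252) and Kcnd3 (-1.97, SE 0.33, adjusted p = 5.87e-05) were likewise lower than in GNPs, followed by Kcnab1 (-1.59, SE 0.47, adjusted p = 0.0102), Kcna5 (-1.39) and Kcna2 (-1.29), the last not called with arrays centred on the named genes (-0.75, adjusted p = 0.0702). Higher were Kcnq1ot1 (2.83, SE 0.33, adjusted p = 1.08e-06), Cacna2d1 (1.99, SE 0.19, adjusted p = 7.87e-08), Cacna1d (1.95, SE 0.29, adjusted p = 1.83e-05), Scn1a (1.84, SE 0.58, adjusted p = 0.0147) and Cacna1e (1.80, SE 0.42, adjusted p = 0.00166). The Scn1a call was lost without GNP 3 (1.70, adjusted p = 0.0592). Cacna1c (1.67, SE 0.28, adjusted p = 6.74e-05), Cacna1b (1.28, SE 0.26, adjusted p = 0.000499), Kcnh2 (1.34, SE 0.27, adjusted p = 0.000517) and Scn8a (1.21, SE 0.29, adjusted p = 0.00218) were higher as well. Of the P/Q-, N- and R-type genes 2 of 3 were thus higher, and of the L-type genes 2 of 4, with Cacna1s lower at -1.29. Of all genes, 9.4% were higher and 29.9% lower in this comparison.

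In GTML tumours Kcnd2 was lower than in GNPs (-2.77, SE 0.56, adjusted p = 0.00042), whereas Kcnd3 was higher (1.21, SE 0.33, adjusted p = 0.00506). The largest rises were those of Cacna1h (2.95, SE 0.17, adjusted p = 2.87e-11), Kcnq1ot1 (2.90, SE 0.33, adjusted p = 4.97e-07), Kcna1 (1.91, SE 0.43, adjusted p = 0.00103), Cacna2d4 (1.80, SE 0.35, adjusted p = 0.000299) and Cacna1g (1.43, SE 0.38, adjusted p = 0.0042). The largest falls beside Kcnd2 were those of Cacng5 (-3.33, SE 0.40, adjusted p = 8.88e-07), Cacng8 (-2.01, SE 0.28, adjusted p = 6.69e-06), Cacna1d (-1.73, SE 0.29, adjusted p = 5.78e-05) and Cacng4 (-1.68, SE 0.36, adjusted p = 0.00078). The differences of Cacna2d4, near background in GNPs, and Cacng8, near background in GTML tumours, are lower limits. Of the gamma genes 5 of 8 were lower and none was higher, and both T-type genes were higher, where 25.7% of all genes were lower and 16.1% higher. The gamma genes Cacng1, Cacng3 and Cacng6 were near background in every group.

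The CRISPR-Ptch1 tumours were next compared with the other models, which asks how somatic editing relates to germline and conditional loss of Ptch1. Against MERP tumours 12 channel genes (19.7%) were higher and 1 (1.64%) lower, where 8.2% and 5.15% of all genes were. With arrays centred on the named genes the counts were 11 and 7, and 29 genes were called with array weights but 8 with only the compared groups in the fit. Higher were Kcnd2 (3.74, SE 0.54, adjusted p = 0.00018, 13.4-fold), Scn2b (2.75, SE 0.66, adjusted p = 0.00922), Kcnc1 (2.18, SE 0.45, adjusted p = 0.0034), Kcna1 (1.99, SE 0.41, adjusted p = 0.0033) and Kcna2 (1.92, SE 0.36, adjusted p = 0.00202). Kcnd3 (1.80), Cacna2d2 (1.77), Scn1a (1.73), Kcnab1 (1.72), Scn2a (1.69), Cacng4 (1.26) and Scn4b (0.91) made up the 12. The arrays of both groups did not overlap in several of these, for example Kcnd2 (8.82 to 11.02 against 4.87 to 7.18) and Kcna2 (7.25 to 8.62 against 5.15 to 6.86). These genes were picked by their call, and the share of all genes without such overlap was not counted. Cacna1h was lower (-0.79, SE 0.17, adjusted p = 0.00401). Without EP 2 the calls fell to 6 of 61, and Scn2b was 2.20, adjusted p = 0.0791.

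Markers of adult neurons and of other cells differed as well. The mean of 7 Purkinje cell markers was 8.80 in EP 1, 10.44 in EP 2 and 7.80 in TF, against 5.31 to 5.65 in MERP and 5.29 to 5.86 in Ptch1+/- tumours, 5.85 to 7.18 in GTML tumours, 6.87 to 7.02 in GNPs and 13.27 to 13.38 in adult cerebellum. That of 11 mature granule neuron markers was 9.20, 10.39 and 8.27, against 6.97 to 7.76 in MERP, 7.09 to 7.42 in Ptch1+/- tumours and 12.17 to 12.24 in adult cerebellum. All 7 Purkinje markers were higher in CRISPR-Ptch1 than in MERP tumours and in Ptch1+/- tumours, and 6 and 9 of 11 granule neuron markers. Microglia and macrophage markers were higher too (7 and 8 of 8). So were 4 and 3 of 7 oligodendrocyte, 2 and 4 of 8 astrocyte, 2 and 3 of 5 interneuron and 2 and 2 of 6 endothelial markers. Against Ptch1+/- tumours 1 astrocyte marker was lower. Of all genes, 8.2% were higher than in MERP and 28.5% higher than in Ptch1+/- tumours. The part of these cells in the channel differences was not tested.

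Among the 3 CRISPR-Ptch1 tumours, both marker means were highest in EP 2 and lowest in TF, and most adult-high channel genes had that order too. Of the 22 genes that were highest in adult cerebellum, EP 2 had the highest signal in 21 and TF the lowest in 21, and in 20 the order was EP 2, EP 1, TF. The median of the EP mean minus TF was 1.01. Over all 61 genes the counts were 38, 41 and 34, with a median of 0.28. Of the 6 genes that were lowest in adult cerebellum they were 4, 5 and 4, with a median of 0.50. The share of all genes with this order was not counted. Whether the order is particular to channel genes can therefore not be told. Cacng5 (9.53 and 9.08 in EP, 10.69 in TF) and Kcnh2 (7.85 and 7.71 in EP, 9.08 in TF) had the opposite order. With 1 TF tumour, which also lacks Trp53, there is no test of this difference.

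**Figure D5:**
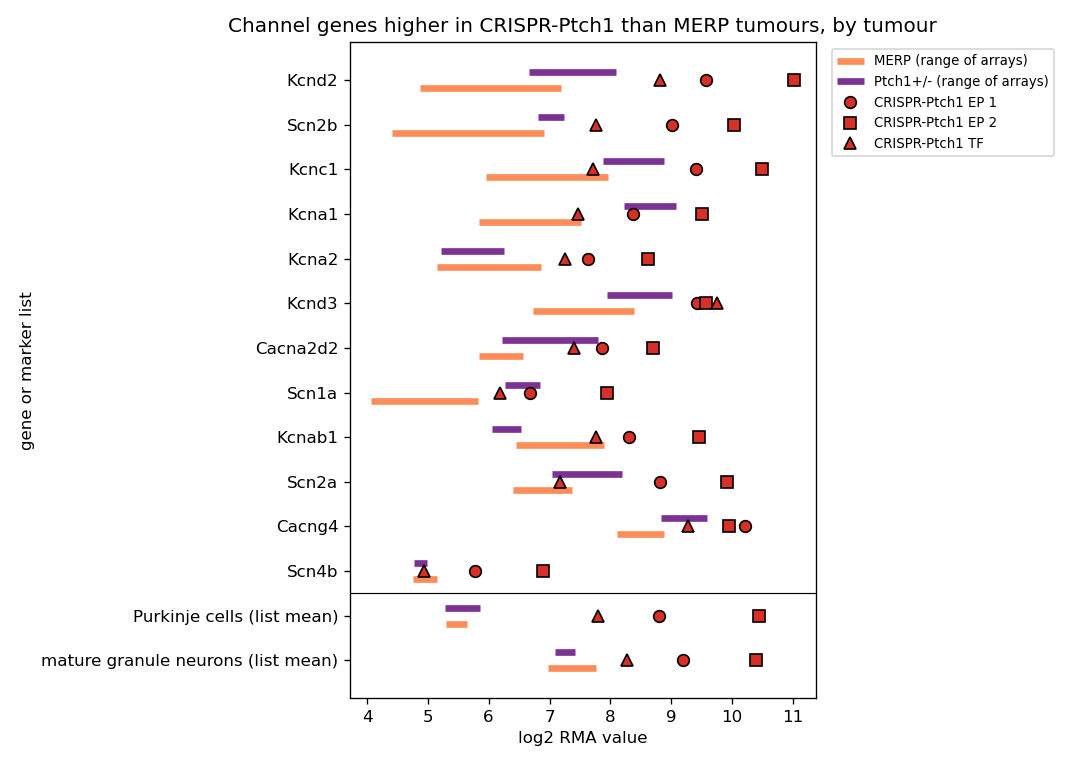
Signals (RMA log2, horizontal axis) in the single CRISPR-Ptch1 tumours, shown as points for EP 1, EP 2 and TF, of the 12 channel genes higher than in MERP tumours and of the means of the Purkinje and mature granule neuron marker lists (rows). Bars give the range of MERP and Ptch1+/- tumours. EP 2 lay highest in most rows, with a Purkinje mean of 10.44 against 7.80 in TF.

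Against Ptch1+/- tumours 7 channel genes were higher and 9 lower (all genes 28.5% and 8.33%). With arrays centred on the named genes 3 were higher and 29 lower, and with array weights 30 were called in all. Kcnd2 (2.41, SE 0.56, adjusted p = 0.00192), Kcnab1 (2.17, SE 0.47, adjusted p = 0.00106), Kcna2 (1.96, SE 0.38, adjusted p = 0.000405), Scn2b (1.96, SE 0.69, adjusted p = 0.0295) and Scn4b (1.02, SE 0.31, adjusted p = 0.0121) were higher, as were Kcnd3 (1.02) and Kcnc4 (0.73). Without EP 2 the calls of Scn2b (1.42, adjusted p = 0.17) and Scn4b (0.51, adjusted p = 0.15) were lost. Lower were Kcnq1ot1 (-2.37, SE 0.33, adjusted p = 2.12e-05), Cacna1c (-1.77, SE 0.28, adjusted p = 5.78e-05), Cacna1e (-1.53, SE 0.42, adjusted p = 0.00652), Cacna1d (-1.40, SE 0.29, adjusted p = 0.000704) and Kcnh8 (-1.34, SE 0.44, adjusted p = 0.0195), together with Cacna1b (-1.27), Scn8a (-1.26), Kcnh2 (-0.94) and Cacng7 (-0.75). The Kcnd3 call was lost with the mean of the probe sets (0.24, adjusted p = 0.231) and that of Kcnc4 with arrays centred on the named genes (0.25, adjusted p = 0.277), and the Cacng7 difference was -0.24, adjusted p = 0.131 with the mean of the probe sets. The Cacna1e difference was -0.80, adjusted p = 0.0751 without the TF tumour, and the Kcnh8 call was lost without EP 2 or either of 2 Ptch1+/- arrays. Of the genes that were lower, Cacna1e and Kcnh2 overlapped between the groups and the others did not. They were picked by their call, and the share of all genes without overlap was not counted.

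Against GTML tumours, which differ in their driver, 17 channel genes were higher and 12 lower (all genes 22.7% and 14.1%). With arrays centred on the named genes the counts were 15 and 24, and with only the compared groups in the fit 15 genes were called in all. In the same comparison 5 of 7 Purkinje, 8 of 11 granule neuron, 6 of 8 astrocyte, 5 of 8 microglia and 3 of 4 oligodendrocyte precursor markers were higher (the last list with a median difference of 3.49) and 2 of 4 photoreceptor markers lower, and their part in the channel differences was not tested. Higher were Cacng5 (4.26, SE 0.40, adjusted p = 4.5e-08, 19.1-fold), Cacng8 (2.92, SE 0.28, adjusted p = 6.12e-08), Cacna2d3 (2.50, SE 0.55, adjusted p = 0.00112), Cacna1d (2.28, SE 0.29, adjusted p = 2.87e-06) and Kcnd2 (2.22, SE 0.56, adjusted p = 0.00361). Cacng8 is near background in GTML tumours, so that its difference is a lower limit. Lower were Cacna1h (-2.85, SE 0.17, adjusted p = 7.09e-11), Kcnq1ot1 (-2.44, SE 0.33, adjusted p = 6.98e-06), Kcnd3 (-2.16, SE 0.33, adjusted p = 2.27e-05), Cacna2d4 (-1.65, SE 0.35, adjusted p = 0.000896) and Kcnc2 (-1.58, SE 0.56, adjusted p = 0.031), the last lost without any 1 of 6 of the 7 arrays. Cacna2d4 is near background in CRISPR-Ptch1 tumours, and its difference is a lower limit too. No sodium channel alpha gene was called, at differences of -0.18 to 1.24. The 3 comparisons of this kind share the CRISPR-Ptch1 arrays.

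Genes that work with these channels, taken from a list of partners of which 50 were measured, were read beside them. Of the 50, 28 were lower and 9 higher in GNPs than in adult cerebellum, 24 and 5 in CRISPR-Ptch1, 26 and 5 in MERP, 25 and 5 in Ptch1+/- and 31 and 10 in GTML tumours, where the shares of all genes were 21% lower and 29.1% higher, 21.1% and 26.4%, 24.9% and 30.8%, 30.8% and 22.4%, and 27.9% and 27.3% in the same order. Of 14 anchoring and clustering genes, which place channels at initial segments, juxtaparanodes and synapses, 12 were lower in GNPs, 11 in CRISPR-Ptch1 and MERP, 10 in Ptch1+/- and all 14 in GTML tumours, to be read against the same shares of lower genes (21% to 30.8%). Kcnip4 and Dpp10, auxiliary subunits of Kv4 channels, were lower in GNPs (-6.31, SE 0.53, adjusted p = 1.68e-09 and -5.79). Lgi1, a secreted partner of ADAM receptors beside Kv1 channels, was lower there (-4.58, SE 0.47, adjusted p = 4.34e-08), as was Fgf14, an intracellular regulator of sodium channels (-4.27, SE 0.47, adjusted p = 1.08e-07). Kcne2, an accessory subunit, was higher in GNPs (5.60, SE 0.69, adjusted p = 5.21e-07) but not called in any tumour group. Rest, the repressor of neuronal genes, was higher than adult in GNPs (1.52, SE 0.30, adjusted p = 0.000209) and CRISPR-Ptch1 tumours (0.79, SE 0.30, adjusted p = 0.0351), lower in Ptch1+/- (-0.998, SE 0.28, adjusted p = 0.00431) and GTML tumours (-0.71, SE 0.28, adjusted p = 0.0353) and not called in MERP tumours (0.27), and its corepressor Rcor2 was higher in each, by 3.32 to 4.003.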

How the data were processed

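RNA of 23 samples was measured on Affymetrix mouse expression arrays. According to the submitters' processing notes, the deposited log2 values are RMA output of Affymetrix Expression Console 1.3.1. RMA corrects background, equalizes the distributions of arrays and summarizes each probe set. Which arrays were normalized together is not given in the sources used here, and where samples of a group are not stated to come from separate animals, the p-values rest on a spread among arrays that may be technical. Values were used as deposited; 0 were missing. Of 45101 probe sets, 34958 had 1 gene symbol, 932 several and 9211 none. For each of 18194 genes the single-symbol probe set with the highest mean was kept (18 of 61 channel genes had 1, 43 several). The 6 groups were fitted together (lmFit and eBayes of limma 3.58.1, R 4.3.3) with 12 contrasts, and p-values adjusted by Benjamini-Hochberg over all genes. Counts and figures were made with Python 3.11.15, pandas 2.3.3, numpy 2.4.6 and matplotlib 3.10.9. The script was tested on simulated data. Array number limits the precision. The members and lists were chosen with earlier results of these data known. Named were up to 5 genes per direction and comparison and, per role, those with the highest mean and widest range, and further genes to account for the rest. There were 13 alternatives, including the replicate number as a block: same-numbered arrays of different groups did not deviate together (median r -0.0083 over 46 pairs, -0.0013 over 153 other pairs), so the numbers were not taken to pair samples. Group means no higher than the arrays' lower quartile were read as near background. The study's further CRISPR-Ptch1 tumours were not analysed here.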

Additional observations from a re-analysis of the deposited data

Results flagged for a closer look

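The genes with values given for every array were screened for single arrays far from the rest of their group, and 4 of 92 groups of 4 or 5 arrays were picked out, where chance gives about 1 in 20. Scn2b was 4.40 in MERP 5 and 6.42 to 6.90 in the other MERP tumours (gap over range 0.807). Kcnab1 was 7.90 in the same tumour and 6.45 to 6.66 in the others (0.856). MERP 5 also had the highest signals of skeletal muscle markers in its group (mean of 5 markers 6.08 against 4.98 to 5.43; Acta1 8.03 against 5.48 to 6.69, Mylpf 7.34 against 5.34 to 6.22), and Pvalb was 12.06 against 7.91 to 8.88. Their part in the Scn2b and Kcnab1 signals was not tested. Cacng5 was 7.60 in MERP 4 and 9.06 to 9.53 in the others (0.758). Cacnb4 was 12.70 in adult cerebellum 1 and 12.49 to 12.52 in the others (0.9). The differences of these genes between MERP tumours or GNPs and adult cerebellum were far larger than these gaps in Scn2b, Kcnab1 and Cacnb4, whereas Cacng5 was not called between MERP tumours and adult cerebellum.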

How the results depend on the processing

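Counts of called channel genes, given as main count and then alternative, moved by more than 1.5 times as follows. With array weights they went from 34 to 53 for GNPs against adult cerebellum, 6 to 38 for CRISPR-Ptch1 against GNPs, 15 to 33 for MERP against GNPs, 13 to 29 for CRISPR-Ptch1 against MERP and 16 to 30 for CRISPR-Ptch1 against Ptch1+/-. With arrays centred on the named genes they were 26 for MERP and 39 for Ptch1+/- against GNPs (main 24) and 32 for CRISPR-Ptch1 against Ptch1+/-. With only the compared groups in the fit they were 11 for CRISPR-Ptch1 against GNPs, 8 against MERP and 15 against GTML (main 29). CRISPR-Ptch1 against GNPs gave 3 without dim genes and 10 with the EP tumours alone. The TF tumour alone gave 3 against MERP and 7 against Ptch1+/-, in a fit where it is assumed to vary like the other groups. Leaving out 1 array at a time gave 32 to 36 for GNPs, 30 to 35 for CRISPR-Ptch1, 35 to 38 for MERP, 35 to 37 for Ptch1+/- and 39 to 43 for GTML against adult cerebellum. Against GNPs it gave 3 to 10 for CRISPR-Ptch1 (3 without EP 2 or GNP 3, 10 without TF), 9 to 17 for MERP (9 without any 1 of the GNP arrays), 17 to 22 for Ptch1+/- and 21 to 30 for GTML. For CRISPR-Ptch1 tumours it gave 6 to 17 against MERP (6 without EP 2), 13 to 17 against Ptch1+/- and 22 to 28 against GTML. With the replicate number as a block, in the same order, the counts were 36, 32, 36, 38 and 42 against adult cerebellum, 5, 14, 26 and 26 against GNPs, and 10, 17 and 24 for CRISPR-Ptch1 against MERP, Ptch1+/- and GTML, where same-numbered arrays share only a number. Of the single genes, those called kept their direction and call in 5530 pairs of a gene difference and an alternative, lost the call in 424 and turned in 8. The turned values were Cacna2d1 with the probe set of the highest SD (-0.56 for GNPs against adult cerebellum and -2.28 for CRISPR-Ptch1 against GTML), Scn9a with the mean of probe sets or that of the highest SD (0.17 and 0.73 for GNPs against adult cerebellum, -0.055 and -0.66 for GTML against GNPs), and, with the TF tumour alone, Kcnh2 against adult cerebellum (0.049) and Scn4b against MERP (-0.018). The cause was not tested. No detection calls were used, and signals near the lower quartile of the arrays bound what can be read.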
